A study of Sus scrofa with 14 samples.

Results

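The genes studied here are those of ileal bile acid uptake: the transporter SLC10A2, the binding protein FABP6 and the receptor NR1H4. Probes were taken when the RefSeq accession in the scanner files belonged to 1 of these 3 genes, or when the study's own table of pig probes gave the gene's name. By this rule 2 of the 3 genes had a probe. SLC10A2 had 1 (A_72_P143241, accession NM_001244463) and FABP6 had 2 (A_72_P176396 and A_72_P115941, both NM_214215), among 3020 genes that could be named from 6686 of the 43603 probes. For NR1H4, 0 probes were found, so nothing is reported on its level. The SLC10A2 probe and the first FABP6 probe also stand in the study's table of probes chosen for the size of their change within pigs, and SLC10A2 was chosen for its decrease with yellow onion. All changes of both genes between digests are therefore given as a description, without a test.

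The arrays came from the pig small intestinal segment perfusion (SISP) model, in which loops of gut with intact blood supply are filled and perfused in an anaesthetised animal. The pigs were male piglets 5 weeks old and weighing 8.2 kg, with segments prepared at 31 to 58% of the length of the small intestine, in the jejunum. Pigs 1, 2 and 4 each gave 1 segment perfused with saline digest (Sd) and 1 with yellow onion digest (YOd), and pigs 5, 6, 7 and 8 each gave 1 Sd segment and 1 segment with white onion digest (WOd), all for 6 h. The Sd and onion segments of a pig lay in adjacent pairs, and RNA came from mucosal scrapings of the caudal 10 cm of each segment. The position of each segment along the gut is not given in the sources used here. All digests, Sd included, contained added taurocholate and glycodeoxycholate, which are bile salts. The Sd digest was diluted more strongly than the onion digests and in another fluid, so onion, bile salt load and diluent cannot be told apart.

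Bile acids are made in the liver, released into the duodenum to dissolve fat, and recovered almost entirely in the ileum. SLC10A2 (also called ASBT) carries them with sodium across the apical membrane of ileal enterocytes. FABP6 binds them in the cytosol, and NR1H4 (FXR) is the nuclear receptor that senses them and switches on genes such as FABP6. SLC10A2 and FABP6 are therefore used as markers of the distal small intestine, and both are normally low in the jejunum. No probe or transcript sequence is printed, since the files used here carry none.

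The 14 arrays had 50.5% to 70.6% of their probes well above background, the lowest share on the Sd array of pig 8. Before the results, the pair of arrays of pig 2 needs mention. Of the 91 pairs among the 14 arrays it was the most alike, with 64 of 2400 genes over 1.5-fold apart, against 294 to 581 genes between both segments of the other 6 pigs. In pig 2, 85.3% of genes differed by no more than the summed scanner errors of both spots, against 47.5% to 63.6% in the other pigs. Whether this pair differs less because of its tissue or its RNA was not tested, and the mean YOd differences and list counts are given with and without it. Without pig 2 the YOd values rest on 2 pigs, and 13.2% of all genes tested were called. Enterocytes were well represented, as 13 of 13 enterocyte markers with a probe were well above background on all arrays. Of these, 9 were saturated on 13 or 14 arrays, APOA1, FABP2 and APOA4 included, so their levels are not ordered.

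Levels are log2 signals relative to the 75th percentile of the array, so 0 is the level of a rather bright probe, and each unit is a factor of 2 in signal. Signals under the 40th percentile of all arrays pooled were raised to it, which is a floor of −4.43 on this scale. The level of a probe should not be set against that of another probe, because probes differ in how brightly they report the same amount of RNA.

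SLC10A2, the transporter, was measurable in most Sd segments but at very unequal levels. Its log2 level in Sd was 1.24 for pig 6, −1.15 for pig 5, −1.21 for pig 2, −1.86 for pig 4, −1.93 for pig 7, −2.62 for pig 1 and −3.74 for pig 8. Pig 6 stood above all other pigs, and in pig 8 the spot was not well above background. The neighbours in this order that did not differ beyond the summed scanner errors of both spots were pigs 5 and 2, and pigs 4 and 7. The mean over the 7 Sd segments was −1.61 ± 1.54 (SD, n = 7), with the value of pig 8 counted as measured. Over the 2400 genes above the floor on at least 7 arrays, SLC10A2 had the rank 21 in SD among Sd segments, where the median gene had an SD of 0.39. The SD was 0.97 without pig 6 and at least 1.34 without any other single pig.

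FABP6, the cytosolic partner, was even more unequal. With the first probe its log2 level in Sd was 6.47 for pig 6, 3.70 for pig 2, 1.68 for pig 7, −0.33 for pig 5, −1.53 for pig 4, −2.06 for pig 8 and −2.17 for pig 1. The raw signals ran from 100.3 in pig 1 to 43503 in pig 6, and every one was well above background and below saturation. Among neighbours in this order, pigs 8 and 1 did not differ beyond their scanner errors. The SD over the 7 Sd segments was 3.29 and the highest level was 399-fold the lowest, the rank 2 among the 2400 genes, behind ABO with an SD of 3.92. ABO, a glycosyltransferase gene that sets a blood group, was named after its value was seen. Without pig 6 the SD of FABP6 was 2.36.

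**Figure D1:**
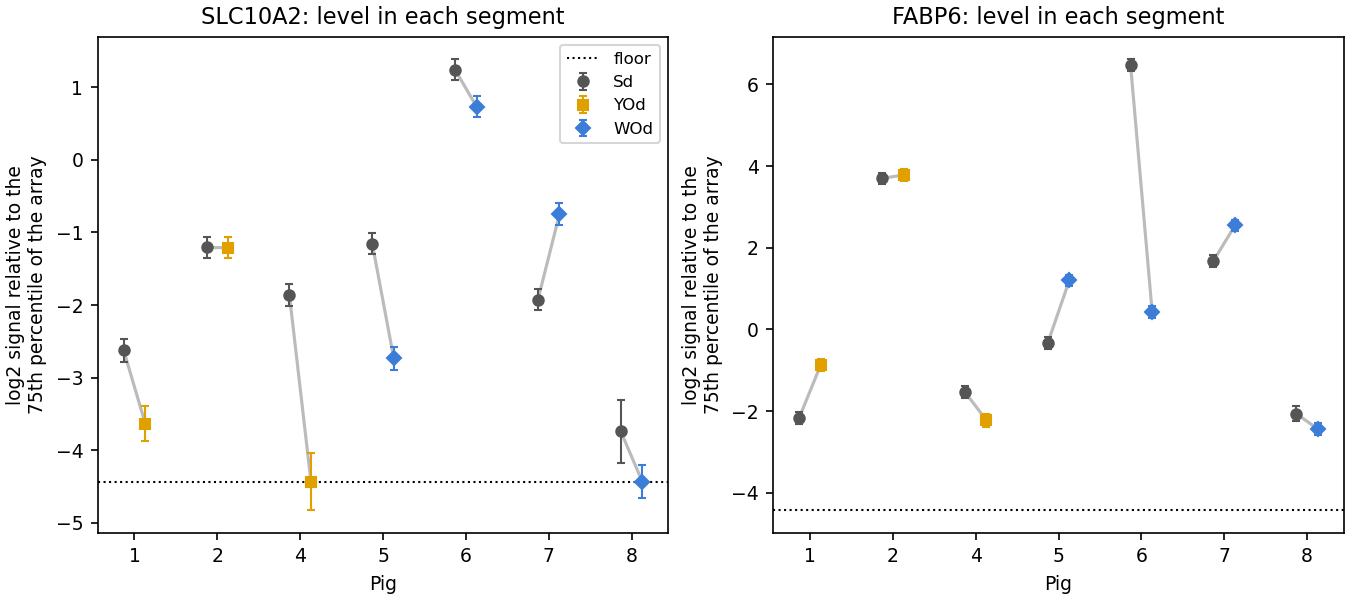
Log2 signal relative to the 75th percentile of the array (vertical axis) for SLC10A2 (left) and FABP6, first probe (right), in each pig (horizontal axis). Grey circles are Sd segments, yellow squares YOd, blue diamonds WOd, lines join both segments of a pig, bars are the scanner's spot error and the dotted line is the floor of −4.43; pig 6 had the highest Sd level of both genes, 1.24 and 6.47.

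The second FABP6 probe gave nearly the same picture. Both probes correlated with r = 0.993 over the 14 arrays and lay within 0.25 of each other on 11 of them. The largest difference was 0.84, on the Sd array of pig 8. With the second probe the Sd order was pig 6, 2, 7, 5, 1, 4 and 8, so that only the lower end of the order changed.

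Other regional markers were compared after leaving out SLC10A2, FABP6 and every probe saturated on any array. The 5 remaining distal small intestine markers (TCN2, GCG, GUCA2B, REG4 and PIGR) had a mean log2 level in Sd of 3.01 in pig 6, next to the lowest, which was 2.75 in pig 7, and the highest was 3.87 in pig 4. These markers therefore did not set the pigs in the order of SLC10A2 or FABP6. The 6 remaining proximal markers had their lowest Sd mean, 0.64, in pig 6, followed by 1.17 for pig 7 and 1.32 for pig 2. These were also the pigs with the most FABP6 in Sd, although pig 2 exceeded pig 7 there. The means of all other pigs ran from 1.55 (pig 8) to 1.78 (pig 5). Pig 5, with the highest proximal mean, came next after pig 6 in SLC10A2, so the order of SLC10A2 was not mirrored. How far the site of a segment contributed was not tested.

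SLC10A2 and FABP6 levels varied together among Sd segments, but this rested mainly on pig 6. Over the 7 Sd segments Pearson's r was 0.862 (exact permutation test, two-sided p = 0.00813, adjusted p = 0.0163 over 2 relations) and Spearman's rho was 0.786 (exact permutation p = 0.0480, adjusted p = 0.0960). Without pigs 6 and 8, which lay farthest from the median of SLC10A2, r was 0.615 (exact permutation p = 0.267, n = 5). Without pig 6 alone r was 0.648 (exact permutation p = 0.161, n = 6). Within the YOd pigs and the WOd pigs no correlation was computed, since each set held fewer than 6 pigs. Over the 7 onion segments r was 0.714 and over all 14 arrays 0.756, given as a description since both arrays of a pig share the animal. Over the 14 arrays FABP6 had the rank 27 among 2399 genes for likeness to SLC10A2, and SLC10A2 the rank 16 for likeness to FABP6.

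**Figure D2:**
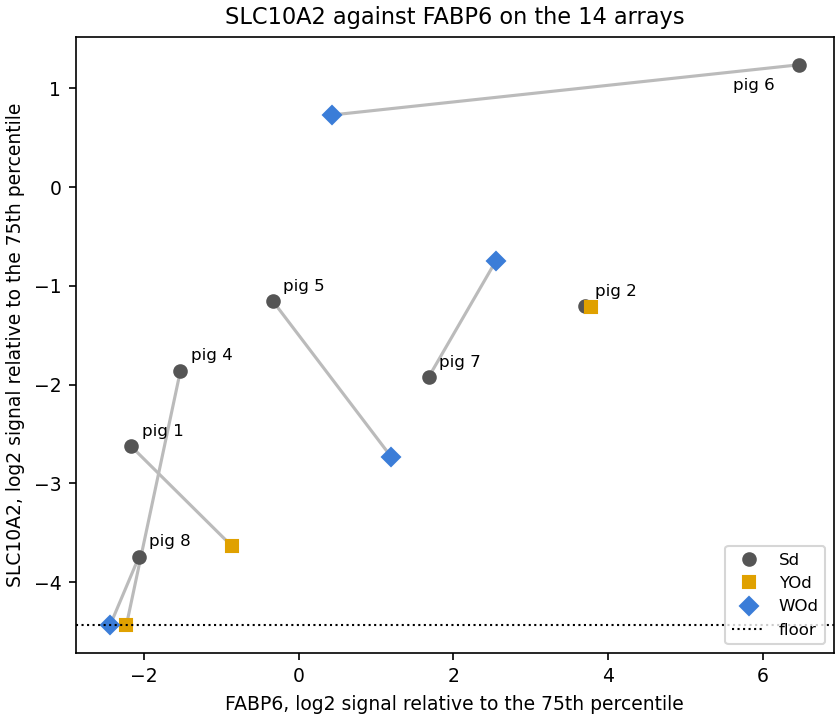
Log2 level of SLC10A2 (vertical axis) against FABP6, first probe (horizontal axis), both relative to the 75th percentile of the array, on the 14 arrays. Circles are Sd, squares YOd, diamonds WOd, each line joins both segments of a pig named at its Sd point, and the dotted line is the floor of SLC10A2; the Sd points gave r = 0.862, and the line of pig 6 runs almost level from 6.47 to 0.43 in FABP6.

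With yellow onion, the transporter was lower or equal in each pig. SLC10A2 went from −2.62 in Sd to −3.63 in YOd in pig 1, which is 2.01-fold lower. In pig 4 it went from −1.86 to the floor, where the spot was not well above background. The resulting 5.94-fold lower value depends on this processing, and the authors' processed values gave a log2 ratio of −1.39. In pig 2 the level of SLC10A2 was −1.21 in both segments. The Sd and YOd groups overlapped across pigs. The mean log2 difference YOd minus Sd was −1.19 (SE 0.44 from the limma fit, SD of the ratios 1.29, n = 3). It was −1.79 without pig 2 and −0.51 without pig 4. Across all genes 111 of 2449 passed raw p and 1.5-fold in this comparison, 4.53% (23 lower, 0.939%, and 88 higher, 3.59%). SLC10A2 was among the 23, from which nothing is read, since it was chosen from this comparison. After Benjamini-Hochberg adjustment limma called 0 genes, and 274 had a raw p under 0.05. The median gene was 0.14 higher with YOd on the log2 scale.

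FABP6 did not follow the transporter in these pigs. It went from −2.17 in Sd to −0.87 in YOd in pig 1, from 3.70 to 3.78 in pig 2 and from −1.53 to −2.23 in pig 4. The levels of both groups overlapped, and the differences between pigs were far larger than those between segments. The mean difference was 0.23 (SE 0.35, n = 3), 0.30 without pig 2 and −0.31 without pig 1. In pig 1 the second probe gave a ratio of 0.54 where the first gave 1.30, the largest disagreement between both probes.

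With white onion, SLC10A2 was lower in pigs 5 and 6, higher in pig 7 and at or near background in both segments of pig 8. It went from −1.15 in Sd to −2.73 in WOd in pig 5, which is 2.99-fold lower, and from 1.24 to 0.73 in pig 6, which is 1.42-fold lower. In pig 7 it went the other way, from −1.93 to −0.75, which is 2.26-fold higher. In pig 8 it went from −3.74 to the floor, a difference of −0.69 between values at or near background. The mean difference WOd minus Sd was −0.40 (SE 0.40, SD of the ratios 1.15, n = 4). Without pig 7 the mean was −0.93, and without pig 5 it was −0.0075. Across all genes 29 of 2429 passed raw p and 1.5-fold, 1.19% (10 lower, 0.412%, and 19 higher, 0.782%). SLC10A2 was not among them, from which nothing is read, since the ratios of these pigs were used in listing its probe. Here too limma called 0 genes after adjustment, and 67 had a raw p under 0.05.

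FABP6 showed the widest swing with white onion, in 1 pig. In pig 6 its level was 6.47 in Sd and 0.43 in WOd, raw signals of 43503 and 684, a 65.8-fold difference that the second probe gave as 61.2-fold. In pig 5 FABP6 went from −0.33 to 1.20 and in pig 7 from 1.68 to 2.55, both higher with WOd. In pig 8 it went from −2.06 to −2.44 with the first probe, while the second gave a ratio of 0.15. The mean difference was −1.003 (SE 1.14, SD of the ratios 3.45, n = 4), and 0.68 without pig 6.

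In pig 6 the swing of FABP6 came with changes of other cell types' markers. Of 9 lymphocyte markers 5 were over 1.5-fold lower in WOd than in Sd, with a median log2 ratio of −0.83. The mean level of the list went from −0.93 to −1.84. Among all genes in that pig, 387 of 2400, 16.1%, were over 1.5-fold apart in either direction, with a median ratio of 0.10. In other lists the smooth muscle genes CNN1 and DES and the enteroendocrine gene SCG5 were over 1.5-fold lower. These lists did not move as a whole. Of 4 smooth muscle markers 2 were lower and 2 higher, with a median of −0.21. Of 5 enteroendocrine markers 3 were lower and 2 higher, with a median of −0.18. The fibroblast gene LUM and the goblet gene SPDEF were over 1.5-fold higher. The 4 enterocyte markers without a saturated spot had a median ratio of 0.49 in that pig, with 0 of 4 over 1.5-fold lower. SLC10A2, a gene of the same cells, was 1.42-fold lower. The part of these shifts in the result was not tested. In such scrapings, fewer cells of a type and less RNA per cell cannot be told apart.

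**Figure D3:**
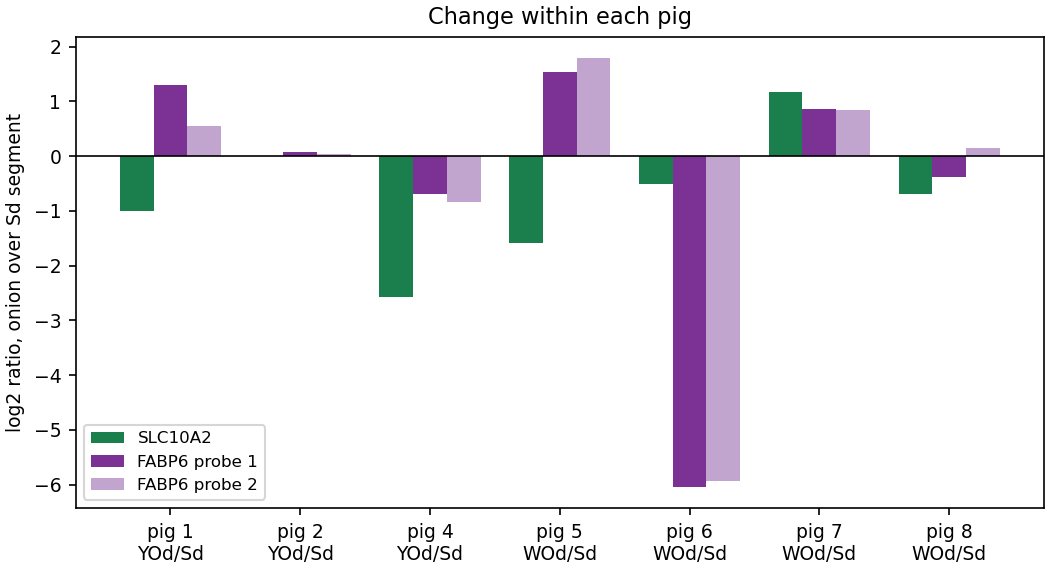
Onion over Sd, as a log2 ratio (vertical axis), in each pig (horizontal axis), for SLC10A2 and for both FABP6 probes, with bars starting at 0. SLC10A2 was below 0 in each pig but pig 7, by 0.004 for pig 2 and with values at or near background for pig 8, while FABP6 ran from 1.53 for pig 5 to −6.04 for pig 6 with the first probe.

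Over both onions, the ratio of SLC10A2 was below 0 in 6 of 7 pigs, pigs 2 and 8 with the limits given above, and that of FABP6 in 3 of 7. For the ratios of both genes against each other, given as a description, r was −0.0027 and rho −0.071 over the 7 pigs. Without pigs 4 and 7, which lay farthest from the median ratio of SLC10A2, r was −0.42, and without pigs 6 and 5, farthest for FABP6, it was 0.54. The sign of this relation is therefore not fixed. The difference YOd effect minus WOd effect was −0.79 (SE 0.70) for SLC10A2 and 1.23 (SE 1.55) for FABP6.

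The SLC10A2 ratio was −0.51 or lower in each pig except pigs 2 and 7, and these were the 2 pigs with both arrays on separate slides. Their Sd arrays lay on the fifth slide, scanned in the second session, with 0 onion arrays beside them. In the 5 pigs with both arrays on 1 slide the ratio was between −2.57 and −0.51. Of these values, −2.57 in pig 4 was set by the floor and −0.69 in pig 8 lay at or near background. In the authors' processed values pig 8 had a ratio of 0 and pig 4 one of −1.39. For FABP6 the same 5 pigs had a mean of −0.86 ± 3.06 (SD), below 0 in 3 of 5. The part of the slide in these ratios was not tested.

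Several genes varied over the 14 arrays like SLC10A2, and part of them also moved with it within pigs. The highest correlations were with EFNB2 (r = 0.913), TNNC2 (0.901), CA4 (0.895), CMAH (0.894) and SLC26A3 (0.876). CA4 is a membrane-bound carbonic anhydrase and SLC26A3 the apical chloride-bicarbonate exchanger. CA4 went from 3.40 to 2.12 for pig 1, 2.73 to 0.65 for pig 4, 4.27 to 2.62 for pig 5, 5.00 to 4.92 for pig 6 and 2.09 to 1.15 for pig 8. It was 4.76 in both segments of pig 2 and went from 4.31 to 5.62 in pig 7, the pig in which SLC10A2 was also higher with onion. SLC26A3 differed more within pigs, with log2 ratios of −3.85 for pig 1, −3.00 for pig 4, −2.49 for pig 5, −1.43 for pig 8, −0.03 for pig 6, 0.31 for pig 2 and 0.92 for pig 7. Over the 7 within-pig ratios, r with SLC10A2 was 0.966 for CA4 and 0.814 for SLC26A3, but 0.215 for EFNB2. These are descriptions of genes picked for their likeness.

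The opposite pattern was led by HOPX (r = −0.922), CD36 (−0.901), BCO1 (−0.898), UQCR10 (−0.896) and ALG5 (−0.892). CD36 takes up fatty acids and BCO1 cleaves beta-carotene in enterocytes. BCO1 was higher with onion in pigs 1, 4, 5, 6 and 8, those with a SLC10A2 ratio of −0.51 or lower, with log2 ratios from 0.51 in pig 1 to 1.73 in pig 5. It was lower in pig 2 at −0.22 and in pig 7 at −1.98. Over the 7 ratios its r with SLC10A2 was −0.888, and that of CD36 was −0.816. For the rest of these opposed genes it was weaker, at −0.48 for HOPX, −0.45 for UQCR10 and −0.44 for ALG5.

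**Figure D4:**
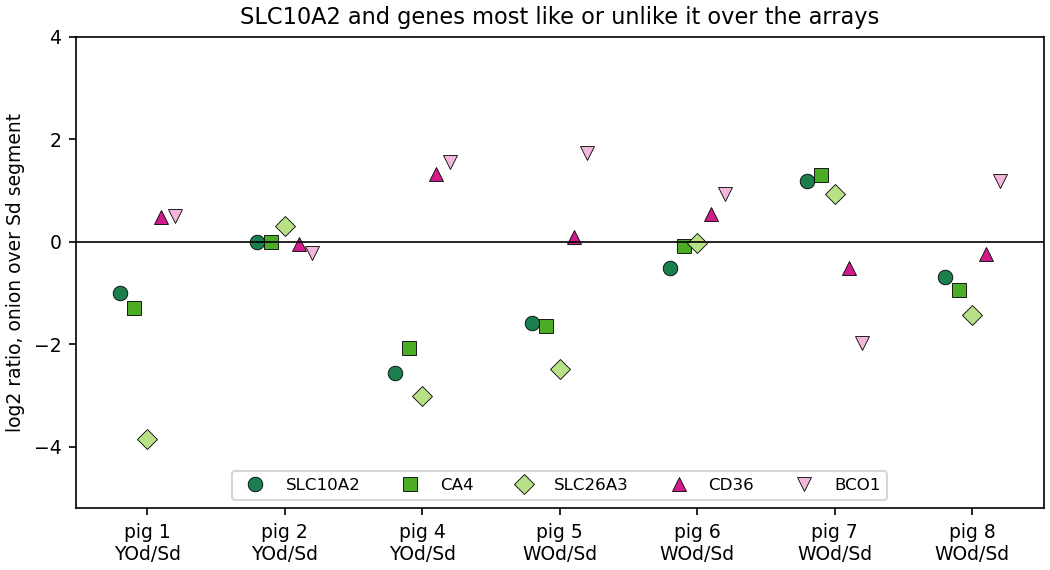
Onion over Sd, as a log2 ratio (vertical axis), in each pig (horizontal axis) for SLC10A2, 2 genes most like it over the 14 arrays (CA4, SLC26A3) and 2 most unlike it (CD36, BCO1). Pig 7 is the pig with SLC10A2, CA4 and SLC26A3 all clearly above 0 (1.18, 1.31 and 0.92), and BCO1 was at −1.98 there.

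For FABP6 the most similar genes were others: FAM209B (r = 0.898), BAZ1A (0.888), WDR76 (0.862), TRPC1 (0.857) and ERO1A (0.842). The most opposed were GDF9 (−0.938), HADHA (−0.898), AKR7A2 (−0.895), CYP2C49 (−0.878) and LIPC (−0.874). HADHA, a subunit of the mitochondrial enzyme of fatty acid oxidation, had its lowest Sd level in pig 6 at 2.98, its next lowest in pig 2 at 3.38, and lay between 3.84 and 4.03 in the other 5 pigs. In pig 6 it was 3.47 in WOd. The range of FAM209B was small, from −3.65 to −1.67, near the floor.

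The other genes of bile acid handling were described from a list of 38. Of these 13 had a probe that could be named, SLC10A2 and FABP6 included, and 11 were tested in YOd and 10 in WOd. Those without a nameable probe include the basolateral exporter genes SLC51A and SLC51B, the hormone gene FGF19 and the repressor gene NR0B2. Without SLC10A2, which was chosen from the YOd comparison, FABP6 and the probes saturated on any array, 6 tested genes were left in YOd. Of these 1, CYP27A1, passed raw p and 1.5-fold, beside 4.53% of all genes, and their median was 0.01, against 0.14 for all genes tested. Without pig 2, 2 of the 6 passed, CYP27A1 and NR1I3, beside 13.2% of all genes, with a median of 0.12 against 0.20. In WOd, 0 of the 5 genes left by the same rule passed raw p and 1.5-fold, beside 1.19% of all genes. Their median was 0.02, against 0.05 for all.

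CYP27A1, a mitochondrial enzyme that starts the acidic route of bile acid synthesis, went from 1.51 in Sd to 2.52 in YOd in pig 1, from −0.50 to 1.75 in pig 4 and from −0.76 to −0.95 in pig 2. The mean difference was 1.02 (SE 0.41, adjusted p = 0.386 in limma), higher in 2 of 3 pigs. Without pig 2, left out after the data were seen, it was 1.63 (SE 0.28) over 2 pigs, given as a description. In WOd its ratios were 0.04 for pig 5, 0.69 for pig 6, −0.71 for pig 7 and 0.06 for pig 8, with a mean of 0.02 (SE 0.23). Its Sd level was lowest in pig 6 at −1.82 and next in pig 2 at −0.76, the 2 pigs with the highest FABP6.

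Of the nuclear receptors on the list, NR1I2 and VDR gave small mean differences, and NR1I3 a larger one in YOd. NR1I2 (PXR) lay between 4.58 and 5.45 on all 14 arrays, with mean differences of −0.15 (SE 0.20) in YOd, the same to 2 decimals without pig 2, and −0.08 (SE 0.14) in WOd. VDR differed by −0.11 (SE 0.17) in YOd, −0.09 without pig 2, and by 0.20 (SE 0.28) in WOd. NR1I3 (CAR) differed by 0.48 (SE 0.21, adjusted p = 0.386 in limma) in YOd, at 6.19 in Sd and 6.98 in YOd in pig 1, 5.62 and 6.35 in pig 4, and 4.87 and 4.78 in pig 2. Without pig 2, left out after the data were seen, the difference was 0.76 (SE 0.18) over 2 pigs, given as a description. In WOd it differed by 0.02 (SE 0.16).

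The other enzymes on the list gave little information. SULT2A1, which sulphates bile acids, differed by −0.35 (SE 0.20) in YOd, −0.55 without pig 2, and by 0.38 (SE 0.33) in WOd, the latter with a ratio of 1.69 in pig 6. The hydroxylase probes CYP3A46 and CYP24A1 were saturated on all 14 arrays and CYP3A29 on 9, so only a bound on their levels was measured and a change could be hidden. SLCO1A2, an uptake carrier, and the synthesis genes CYP7A1 and CYP8B1 were near or at the floor. CYP8B1 was tested in YOd alone, with a mean difference of 0.13 (SE 0.21), and 0.33 without pig 2.

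Markers of position along the gut were counted without SLC10A2, FABP6 and every probe saturated on any array, since a saturated probe cannot show a rise and its ratio follows the scaling of the array. In YOd, 3 of the 6 proximal markers left were called higher and 0 lower, with a median of 0.46, beside 3.59% of all genes called higher and a median of 0.14. The 3 were PDX1, CCK and SLC46A1. The paper already lists PDX1 among the genes affected by onion in the pig. The marker lists were chosen with earlier results of these data known, so their counts are descriptions. Without pig 2, 3 were called higher again, with a median of 0.70, beside 10% of all genes called higher and a median of 0.20. Of the 5 distal markers left 0 were called, with a median of −0.22, and −0.39 without pig 2. In WOd, 1 of 6 proximal markers was called higher, beside 0.782% of all genes, and 0 of 5 distal markers were called, beside 1.19%. Per pig, these proximal markers had a median log2 ratio of 1.003 for pig 1, −0.03 for pig 2, 0.82 for pig 4, 0.23 for pig 5, 0.41 for pig 6, −0.34 for pig 7 and 0.46 for pig 8. Pig 7, the pig with SLC10A2 higher in onion, thus had the lowest median of the proximal markers. In pig 4, where SLC10A2 went to the floor, 4 of 5 crypt and cycling markers were over 1.5-fold lower with YOd, with a median of −1.05, in a pig with 581 of 2400 genes over 1.5-fold apart. In pig 8, 4 of 5 were over 1.5-fold lower too, with a median of −0.70, in a pig with 294 of 2400 genes over 1.5-fold apart. In pigs 1, 5 and 6, where SLC10A2 was also lower with onion, 0 of these 5 markers were over 1.5-fold lower. The part of these markers' shifts in the SLC10A2 ratios was not tested.

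Of 25 genes known as regulators of SLC10A2 or of regional identity, 12 had a probe and were tested. In each comparison 1 was called higher and 0 lower, 8.33%, beside 4.53% of all genes in YOd and 1.19% in WOd. It was PDX1 both times, which is also on the proximal list and among the proximal markers called higher with each onion. The counts of both lists thus share this gene. Without pig 2, 1 was called higher and 2 lower in YOd, beside 13.2% of all genes. The list's medians were −0.01 in YOd, 0.07 without pig 2, and 0.14 in WOd.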

How the data were processed

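Gene expression was measured on 14 1-colour Agilent pig arrays, 1 per segment. The authors deposited Feature Extraction 10.7.3.1 scanner files with the processed signal of each spot, an intensity after background subtraction on a linear scale, and a table of log2 values centred per probe, whose normalization is not given in the sources used here. From the intensity, outlier spots were dropped, replicate spots averaged, each array scaled to its 75th percentile, low values raised to the 40th percentile of all arrays pooled, and log2 taken with no pseudocount. A gene was represented by its brightest named probe. The number of arrays, not sequencing depth, limits the precision.

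Names came from RefSeq accessions through a table of the Sscrofa11.1 assembly, used for names only. YOd/Sd (3 pigs) and WOd/Sd (4 pigs) were analysed by limma 3.58.1 (R 4.3.3), blocked by pig because both segments came from 1 animal. Deviations from the group means had an r of 0.496 to 0.716 between the arrays of 1 pig. Tested genes exceeded the floor on 3 (YOd) or 4 (WOd) or more arrays, and were called at a raw p of 0.05 and 1.5-fold, with Benjamini-Hochberg adjustment over all named genes beside it. A planned limma test of SLC10A2 in WOd/Sd is given as a description, since its probe was found in the study's table under another spelling of the symbol.

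The members, lists and tests were chosen with earlier results of these data known. The genes named are both members, the tested genes of the bile acid list, the 3 brightest genes or the counts of other lists, and the 5 genes most and least like each member over the 14 arrays. Alternatives covered scaling, background correction, floor, filter, probes, the authors' values, pig and slide blocks and each pig left out. The mean signal column was not in the files, so normexp (offset 50) used the median signal. The fits were tested on simulated data and called 94% of 2-fold changes among 2449 genes in YOd/Sd and 96% among 2429 genes in WOd/Sd. The changes were given to randomly picked genes, each with its own fitted noise, without floor or slide effects. These shares are therefore not rates for SLC10A2 or FABP6, whose ratios varied widely between pigs. Lists without saturated probes, and the YOd list values without pig 2, were added after seeing the data. Pig 3 was not analysed here, and the brightest genes of the list of regulators are not reported. Files were read and figures drawn in Python 3.11.15.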

Additional observations from a re-analysis of the deposited data

Results flagged for a closer look

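The level of NR1I3 on the WOd array of pig 6 was 4.39, while those of the other 3 WOd pigs lay between 5.41 and 5.53, a gap to the nearest pig that was large for the range of the group. The Sd array of the same pig, at 4.35, was also the lowest of the 7 Sd arrays. In all, 30 sets of values were examined in this way and 1 stood out, where chance gives about 1 in 20.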

How the results depend on the processing

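The numbers of genes called depended on the processing. In YOd/Sd 111 genes became 63 with quantile normalization or the authors' values, 65 with normexp, 221 with every probe of a gene, 1303 with every probe, 20 with no replicate block, 327 with slide as a block (which leaves out pig 2), and 56 to 327 without 1 pig. In WOd/Sd 29 became 12 with normexp, 54 with the lower floor, 62 with no floor, 68 with every probe of a gene, 327 with every probe, 14 with the authors' values, 10 with no replicate block, 87 with slide as a block (without pig 7) and 44 to 87 without 1 pig. The 2 bile acid genes called in YOd/Sd became 1 without scaling, with normexp, with no filter or with the authors' values, and 0 with quantile normalization, the lower floor, no floor or no replicate block, and 0 (without pig 4) to 3 (without pig 2) when 1 pig was left out. In WOd/Sd 0 became 1 with every probe of a gene, with slide as a block and without pig 7 (range 0 to 1). SLC10A2 stayed below 0 in both comparisons under every alternative run, from −0.51 (normexp, or without pig 4) to −1.79 in YOd and from −0.0075 to −0.93 in WOd. FABP6 in YOd turned to −0.08 without scaling. The pig block did not change the mean differences of either gene. The correlation of SLC10A2 with FABP6 in Sd was 0.648 to 0.901 without 1 pig and 0.615 without the 2 farthest pigs. That of the ratios turned positive, at 0.0149 with quantile normalization, 0.0335 without scaling, 0.116 with normexp, 0.0033 with the lower floor or no floor and 0.0084 with the authors' values, and ran from −0.244 to 0.247 without 1 pig. Leaving out saturated probes, chosen after seeing the data, kept the counts of bile acid genes at 2 and 0. The causes were not tested. No alternative could be run for NR1H4, which has no probe. The SLC10A2 values at the floor or not well above background limit what its ratios in pigs 4 and 8 can show.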
